A study of Caenorhabditis elegans with 8 samples.

Results

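Arsenite was set against water in hermaphrodite Caenorhabditis elegans worms (strain N2, the standard wild type) labelled as 5 days old, with RNA taken from whole animals. The comparison took 4 of the 8 libraries in the series, chosen by their labelled age and treatment: water libraries 23 and 25, and arsenite libraries 24 and 26. The other 4 libraries, 31 to 34, held water and arsenite animals of the same strain at 1 day and entered only to share the estimate of spread and to test whether the arsenite difference changed with age. A concentration of 100 nM stands on both treatments in the labels, the water included. The labels name neither the length of exposure, nor the number of animals pooled, nor separate cultures behind the libraries. The p-values therefore reflect the spread among these libraries alone, and that spread may be technical.

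Arsenite carries trivalent arsenic, which binds pairs of neighbouring thiols in proteins and in the lipoic acid arms of mitochondrial dehydrogenase complexes. In C. elegans, SKN-1 (the worm counterpart of mammalian Nrf transcription factors) drives glutathione synthesis and glutathione S-transferase genes in response to arsenite, while low doses have been linked to mitochondrial signalling and longer life. Whole animals hold intestine, muscle, neurons, hypodermis, germline and embryos together, so fewer cells of a type and less RNA per cell cannot be told apart in any value given here.

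The 4 libraries held between 21598326 and 23891928 counts assigned to genes, and the correlation of log2 CPM (CPM being counts scaled to a common library size) between any pair of them lay between 0.992 and 0.994. Libraries with neighbouring numbers tended to resemble each other: 465 of 14449 genes tested (3.22%) differed between libraries 23 and 24 on one side and 25 and 26 on the other at an adjusted p below 0.05 (edgeR's quasi-likelihood test with Benjamini-Hochberg adjustment), 173 higher (1.2%) and 292 lower (2.02%) in 23 and 24. That split crosses the treatment, since each side holds 1 water and 1 arsenite library. A second fit with a term for the neighbouring numbers, which the labels do not name as pairs, is called the neighbour-term fit below. It left 2 residual degrees of freedom, against 4 without that term, so its p-values rest on a less certain spread. No pair of libraries agreed within counting noise: their chi-square per degree of freedom ran from 4.2 to 11.9, where counting noise alone gives a value near unity. By this measure 25 and 26 were the closest pair (4.203), but library 24 was closer to 26 (6.23) than to 23 (7.97), and 23 was about as far from 24 as from 25 (8.21) and 26 (8.04). Genes defining males were measured to check the labelled sex, and 3 of 12 reached the level needed for testing. Those 3 stayed at a summed 2.04, 1.47, 2.32 and 1.08 CPM in libraries 23, 24, 25 and 26.

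Very few genes passed the test of arsenite against water at 5 days. With 2 libraries a group, a gene that did not pass may still differ. Of 14449 genes tested, 2 (0.0138%) passed an adjusted p below 0.05, both higher with arsenite: ncl-1 and the pseudogene WBGene00014294. No gene passed in the lower direction (0 calls by edgeR, DESeq2 and limma voom), while 573 genes (3.97%) had an unadjusted edgeR p below 0.05, with 270 higher (1.87%) and 303 lower (2.1%). DESeq2 gave 3 calls and 244 unadjusted p-values below 0.05, and limma voom gave 1 call and 578. The values of the arsenite libraries lay wholly above those of the water libraries for 2044 genes (14.1%) and wholly below for 2223 (15.4%), the background for the counts of members given below.

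The gene ncl-1, on chromosome III from 7719729 to 7738105 (genome build WBcel235, protein coding), encodes a B-box and NHL-repeat protein of the TRIM-NHL family. It is known in C. elegans as a repressor of nucleolar size and ribosomal RNA production. It stood at 105.9 CPM in water library 23, 149.7 in arsenite library 24, 115.1 in water library 25 and 149.6 in arsenite library 26. Both arsenite libraries were higher than both water libraries and differed by less than 1 CPM from each other. The log2 fold change was 0.44 (SE 0.06, edgeR adjusted p = 0.004667, n = 2 a group). The call was lost with the 5-day libraries alone (log2 fold change 0.44, edgeR adjusted p = 0.0651). It was also lost without arsenite library 24 (log2 fold change 0.43) or arsenite library 26 (0.43). It was kept without water library 23 (0.37) or water library 25 (0.49). The genes lying opposite ncl-1 on the other strand had 2, 4 and 14 counts over the 4 libraries, against 2541 to 3661 counts of ncl-1 in each.

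The other call, WBGene00014294, lies on chromosome X from 13042182 to 13046220 and is a pseudogene that RefSeq names C53C7.5 at the same position. Its level was 19.6 CPM in library 23, 32.5 in 24, 20.8 in 25 and 29.5 in 26. The water libraries were close together, and the arsenite libraries both lay above them. The log2 fold change was 0.62 (SE 0.11, edgeR adjusted p = 0.0416). This call was lost under several settings, while the log2 fold change stayed between 0.54 and 0.68: the adjusted p was 0.107 with upper quartile scaling, 0.128 with the 5-day libraries alone and 0.05215 in limma voom, and it was above the threshold without any single one of libraries 23 (0.0972), 24 (0.999), 25 (0.0744), 26 (0.102), 32 (0.0910) or 34 (0.0840).

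**Figure D1:**
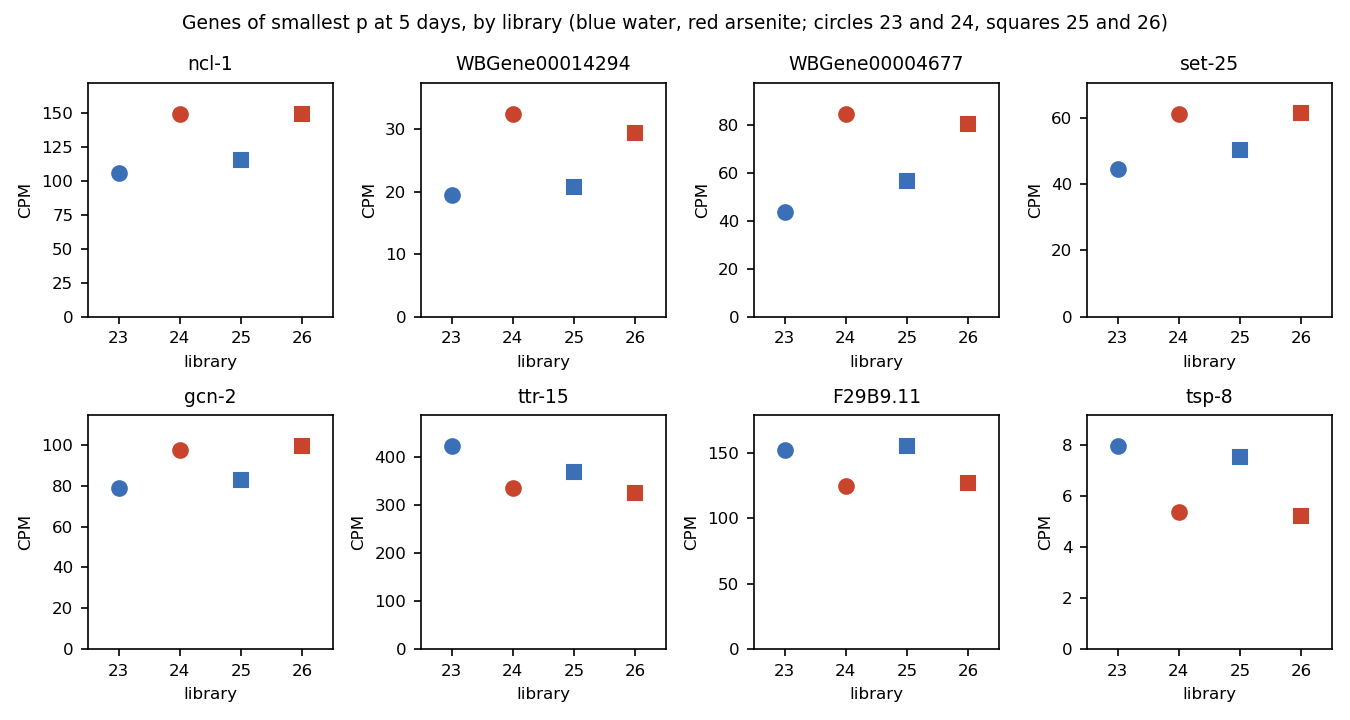
Level in CPM (y axis) of 8 genes of small p in each 5-day library (x axis), with water in blue and arsenite in red, circles for libraries 23 and 24 and squares for 25 and 26. In ncl-1 the arsenite libraries sit at 149.7 and 149.6 CPM, above water at 105.9 and 115.1, and in ttr-15, F29B9.11 and tsp-8 both arsenite points lie below both water points.

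**Figure D2:**
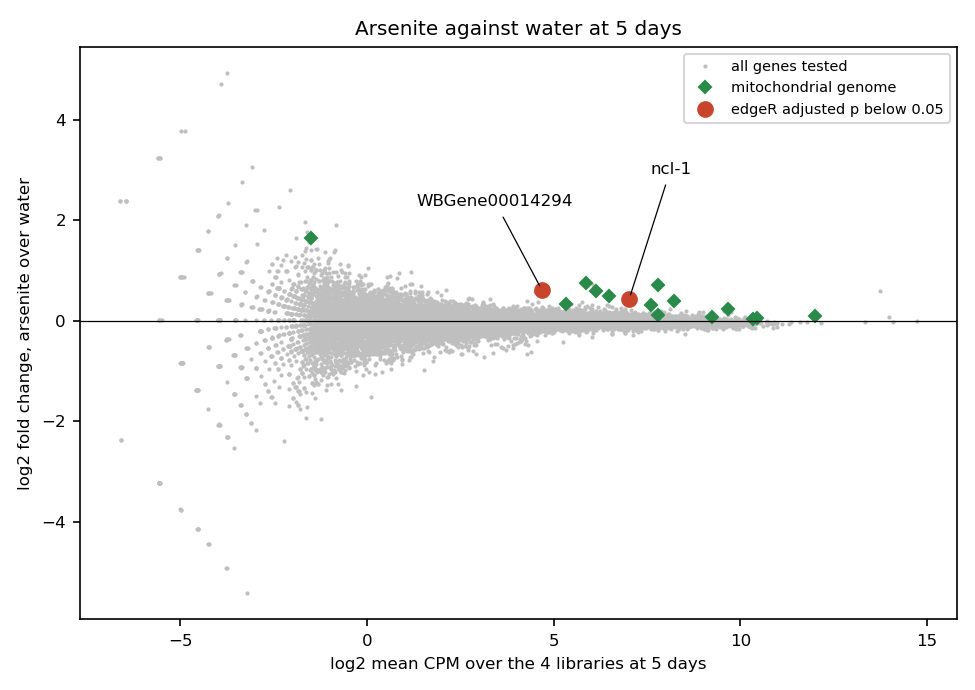
Fitted log2 fold change of arsenite over water (y axis) against the log2 mean CPM of the 4 libraries (x axis) for the 14449 genes tested, with the 2 called genes in red and the genes of the mitochondrial genome as green diamonds. The called genes lie above 0, and so do all 14 diamonds.

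Since NCL-1 acts on the nucleolus, the genes of that compartment were examined next. The TRIM-NHL list of 5 genes is the family of ncl-1 itself. Its 1 call is ncl-1 again and adds nothing to that call, where 0.0138% of all genes passed. The TRIM-NHL list, like the others, was chosen with earlier results of these data known. The microRNA cofactor nhl-2 was at 198, 223, 213 and 227 CPM in libraries 23 to 26, with both arsenite libraries higher, a log2 difference of 0.13 (SE 0.06) and an unadjusted p of 0.0410. The relatives nhl-1 and nhl-3 had log2 differences of -0.10 (SE 0.11) and -0.16 (SE 0.08). Of 29 tested genes of the nucleolus and RNA polymerase I, 17 were positive and none passed, with a median log2 difference of 0.0090 beside -0.0042 over all genes tested. The ribosome biogenesis gene pro-3 led that list (44.7, 52.2, 43.1 and 47.1 CPM in libraries 23, 24, 25 and 26), with a log2 difference of 0.18 (SE 0.08).

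Ribosomal RNA itself took a larger share of the counts with arsenite in both library pairs. The nuclear ribosomal RNA genes held 1.03% of all counts in water library 23, 1.78% in arsenite library 24, 1.202% in water library 25 and 1.59% in arsenite library 26. The groups did not overlap, with means of 1.11% ± 0.125 in water and 1.68% ± 0.138 in arsenite (SD, n = 2). The difference of 0.570 percentage points had an exact two-sided permutation p of 0.3333, the smallest that 2 against 2 libraries can give. The libraries were made with a kit for messenger RNA, so this is the ribosomal RNA carried into such a library and not its amount in the animals.

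Nearly all of these counts (99.8%) fell on the 26S gene rrn-3.1, on chromosome I from 15064838 to 15068346, and 2 of 20 annotated nuclear ribosomal RNA genes reached the level needed for testing. Its level was 9886 CPM in library 23, 17370 in 24, 11730 in 25 and 15390 in 26, a log2 difference of 0.60 (SE 0.19, edgeR adjusted p = 0.999). The 5.8S gene rrn-2.1 stood at 17.1, 26.8, 19.1 and 26.9 CPM in the same order, a log2 difference of 0.57 (SE 0.16, edgeR adjusted p = 0.999). Neither passed, although all arsenite values were above all water values in both. In the neighbour-term fit both did, at edgeR adjusted p-values of 0.00161 for rrn-3.1 and 0.00101 for rrn-2.1. The ribosomal RNA genes are repeated in near-identical copies, and the sources used here do not say how reads matching several copies were counted, so their split between genes is uncertain. At the edge of the same cluster, WBGene00004677 (chromosome I from 15060299 to 15061150), which RefSeq annotates there as the ribosomal RNA pseudogene rrn-3.56, had 43.9, 84.8, 56.8 and 80.6 CPM in libraries 23, 24, 25 and 26. Its log2 difference was 0.72 (SE 0.11, edgeR adjusted p = 0.279), the third lowest p of all genes, and 0.00252 in the neighbour-term fit.

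Further protein-coding genes with small p were higher in both arsenite libraries without passing. The histone H3 lysine 9 methyltransferase gene set-25 (chromosome III from 13283824 to 13293090) was at 44.6 CPM in library 23, 61.2 in 24, 50.2 in 25 and 61.3 in 26. Its log2 difference was 0.37 (SE 0.08, edgeR adjusted p = 0.279, and 0.0134 in the neighbour-term fit), and it overlaps unc-64 on the opposite strand, which had 2093 counts over the 4 libraries. For gcn-2 (chromosome II from 13084164 to 13091501), which encodes the eIF2α kinase that senses uncharged tRNA, the values were 79.0, 97.7, 82.7 and 99.7 CPM in that order. Both water values lay below both arsenite values, and the log2 difference was 0.29 (SE 0.06, edgeR adjusted p = 0.279, and 0.0203 in the neighbour-term fit). The next 7 genes by p among those with at least 5 CPM in a group had log2 differences between 0.23 and 0.35. They include F53H2.3 (0.34), the sex determination transcription factor tra-1 (0.31), the kinase gene gsk-3 (0.27) and lin-38 (0.29). The immunoglobulin superfamily gene rig-4 (0.24), the RNA polymerase III factor subunit tftc-1 (0.23) and the Integrator subunit ints-3 (0.23) complete them.

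On the lower side, among genes with at least 5 CPM in a group, the smallest p belonged to ttr-15, a member of the transthyretin-related family on chromosome III from 10337847 to 10339440. It was at 424 CPM in library 23, 336 in 24, 370.2 in 25 and 326 in 26, so that both arsenite libraries were below both water libraries. Its log2 difference was -0.26 (SE 0.06, edgeR adjusted p = 0.640, and 0.0397 in the neighbour-term fit). F29B9.11 stood at 152, 125, 155 and 127 CPM in the same order, with a log2 difference of -0.29 (SE 0.07, edgeR adjusted p = 0.768). The tetraspanin gene tsp-8, at 7.96, 5.36, 7.50 and 5.22 CPM, had a log2 difference of -0.55 (SE 0.15, edgeR adjusted p = 0.768). The remaining 9 of the 12 lowest p-values in this direction had log2 differences from -0.63 to -0.19. Among them were the C-type lectin clec-10 (-0.37), the Hsp70-interacting protein gene hip-1 (-0.21), the ATP synthase subunit gene F58F12.1 (-0.19), the ribosomal protein gene rpl-25.1 (-0.26) and slt-1, the worm Slit guidance ligand (-0.49). The last 4 were F23F1.10 (-0.47), pqn-25 (-0.63), WBGene00013851 (-0.59) and W08F4.3 (-0.20).

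The mitochondrial genome encodes core subunits of respiratory complexes I, III, IV and V and its own pair of ribosomal RNAs. All 12 subunit genes had positive log2 differences, with a median of 0.28, and in 7 of them both arsenite libraries were above both water libraries, against 14.1% of all genes tested. None passed the adjusted threshold. The largest difference among the well-covered subunits was in ND5 of complex I (185, 289, 154 and 266 CPM in libraries 23, 24, 25 and 26), at 0.71 (SE 0.19, edgeR adjusted p = 0.999, and 0.0139 in the neighbour-term fit). The cytochrome oxidase subunit COX2 had 787, 939.5, 715 and 838 CPM in that order and a log2 difference of 0.24 (SE 0.08), and ND4 had 280.3, 348, 229.9 and 327 CPM and 0.40 (SE 0.20). In each of these the water libraries were the lower values and library 25 the lowest of all.

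The subunits were unequal. CYTB, COX1, COX3 and ATP6, the remaining genes of complexes III, IV and V, had log2 differences of 0.06, 0.10, 0.04 and 0.08 and overlapping groups, and each turned negative when 1 library was left out. The low-count ND4L, at 0.167, 0.409, 0.171 and 0.675 CPM, had a log2 difference of 1.64 (SE 0.62). The median over the 12 genes was 0.12 in library 24 over 23 and 0.37 in library 26 over 25. It was 0.11 without water library 25. The large mitochondrial ribosomal RNA WBGene00014472 stood at 49.1, 71.3, 37.5 and 74.5 CPM (log2 difference 0.75, SE 0.26), and the small one, WBGene00014454, at 62.0, 83.1, 48.97 and 84.9 CPM (0.60, SE 0.40). Both were higher in both arsenite libraries, and neither passed (edgeR adjusted p = 0.999 for each). In the neighbour-term fit the large one did (edgeR adjusted p = 1.0e-04). The kit for messenger RNA limits these 2 values as it does those of nuclear ribosomal RNA.

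**Figure D3:**
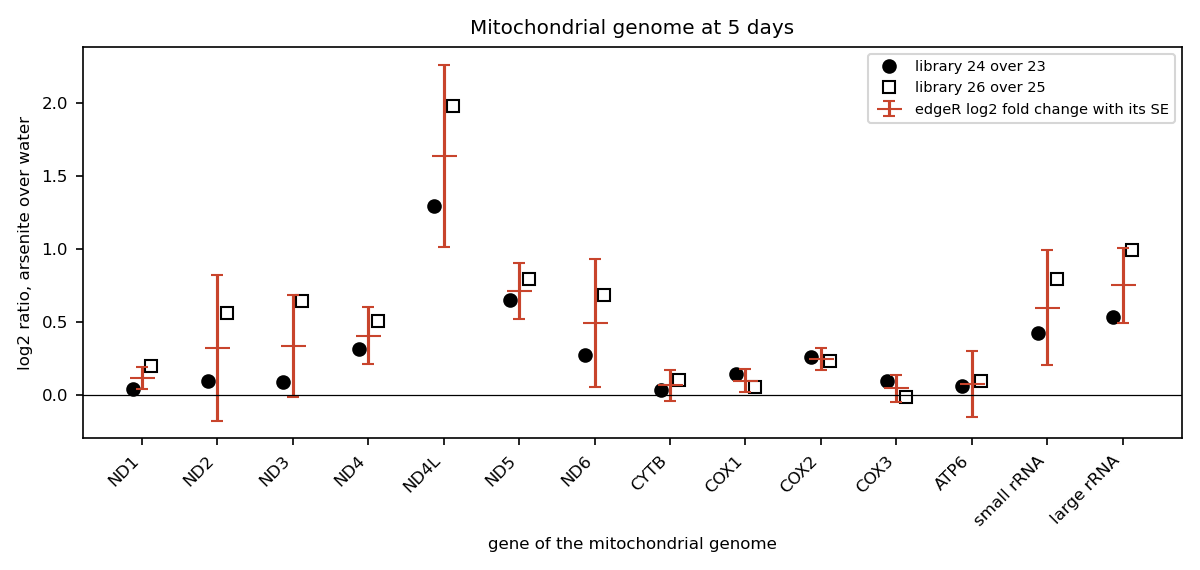
Log2 ratio of arsenite over water (y axis) for the 14 genes of the mitochondrial genome (x axis), as library 24 over 23 (filled circles), library 26 over 25 (open squares) and the edgeR estimate with its SE (red). All edgeR estimates are above 0, from 0.04 for COX3 to 1.64 for the low-count ND4L, and ND5 is high in both pairs.

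Respiratory chain genes encoded in the nucleus, which include those of complex II, mostly had negative log2 differences. Of 19 tested nuclear subunits of complex I, 6 were positive, with a median log2 difference of -0.048, and of 39 tested genes of complexes II to V, 7 were positive, with a median of -0.067. None passed. In 18 of those 39 genes both arsenite libraries were below both water libraries, against 15.4% of all genes. The ATPase inhibitor gene mai-2 was at 134, 117, 135 and 118.9 CPM in libraries 23 to 26, a log2 difference of -0.19 (SE 0.07, unadjusted p = 0.00983). The cytochrome oxidase subunit cox-6C (-0.21, SE 0.09) and the succinate dehydrogenase subunit sdhd-1 (-0.19, SE 0.08) also had lower values in both arsenite libraries. The assembly factor gene cox-18 went the other way (0.26, SE 0.11). Proteins of the mitochondrial ribosome were split, with 30 of 69 positive and a median of -0.017.

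The genes by which cells handle arsenic showed no call. Of 38 tested genes for arsenic and metal handling, 18 were positive and the median log2 difference was -0.00066. The arsenite-inducible RNA-associated protein gene aip-1 was at 31.3 CPM in library 23, 30.5 in 24, 33.4 in 25 and 34.8 in 26, a log2 difference of 0.013 (SE 0.088). The metallothionein genes mtl-1 and mtl-2 had log2 differences of -0.12 (SE 0.31) and 0.0088 (SE 0.11), and the zinc transporter cdf-2 -0.37 (SE 0.20), which was -0.11 without library 24.

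SKN-1 and its targets outside the transferases gave 12 positive of 24, with a median of 0.0054. In 7 of them both arsenite libraries were above both water libraries and in 2 both were below, against 14.1% and 15.4% of all genes. Among the 7 were the low-count genes sdz-8, at 0.834, 1.88, 1.33 and 1.58 CPM (0.68, SE 0.29), and the nitrilase gene nit-1, at 1.501, 2.21, 1.29 and 1.76 CPM (0.51, SE 0.25). Neither passed. The glutamate-cysteine ligase gene gcs-1, a standard readout of SKN-1 activity, was at 152, 151, 139.6 and 140.0 CPM in libraries 23 to 26. Each arsenite library lay within 1 CPM of its neighbouring water library, and the log2 difference was -0.00073 (SE 0.063). The SKN-1 degradation adaptor gene wdr-23 was at 130.3, 145, 129 and 140.1 CPM, with arsenite higher in both pairs (0.14, SE 0.06, unadjusted p = 0.0279). Of 41 tested glutathione S-transferase genes, of 49 in the table, 16 were positive and the median was -0.038. The SKN-1 reporter gene gst-4 had 7.63, 8.87, 5.58 and 7.25 CPM and overlapping groups, with a log2 difference of 0.29 (SE 0.15, unadjusted p = 0.0701) that ranged from 0.075 without library 25 to 0.53 without library 23. It overlaps dhs-12 on the same strand, which had 4295 counts over the 4 libraries. The lipoic acid dehydrogenase complexes, known targets of trivalent arsenic, had 3 of 17 genes positive with a median of -0.028. The lipoate synthase gene lias-1 was at -0.095 (SE 0.069) and the pyruvate dehydrogenase subunit gene pdha-1 at -0.065 (SE 0.058).

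No gene of the stress response lists passed. Superoxide, peroxide and thiol defence had 10 of 32 genes positive and a median log2 difference of -0.046. Cytosolic heat shock proteins had 7 of 22 positive (-0.027), the mitochondrial stress response 10 of 21 (-0.012) and the endoplasmic reticulum stress response 9 of 24 (-0.018). Among 17 standard stress and ageing reporter genes none passed, and their log2 differences ran from -0.12 for mtl-1 to 0.31 for the small heat shock gene hsp-16.2 (SE 0.35). The mitochondrial chaperone genes hsp-6 and hsp-60 were at -0.013 (SE 0.059) and 0.066 (SE 0.066), and the superoxide dismutase gene sod-3 at -0.061 (SE 0.22). The co-chaperone sti-1 (-0.12, SE 0.06), the prohibitin phb-1 (-0.15, SE 0.06) and the transcription factor atf-4 (-0.22, SE 0.09) had unadjusted p-values of 0.0449, 0.0227 and 0.0252. Detoxification families beyond the transferases were also without a call, at medians of -0.044 for 66 cytochrome P450s, -0.014 for 62 UDP-glucuronosyltransferases and -0.029 for 47 ABC transporters. The P450 median became 0.084 without library 23 and the UDP-glucuronosyltransferase median 0.0068 without library 25.

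Most cytosolic ribosomal protein genes had small negative log2 differences. Of 82 tested, 6 were positive, the median log2 difference was -0.092, and in 37 both arsenite libraries lay below both water libraries, against 15.4% of all genes. None passed the adjusted threshold. The large subunit gene rpl-33 was at 587 CPM in library 23, 508 in 24, 606 in 25 and 542 in 26, a log2 difference of -0.18 (SE 0.06, unadjusted p = 0.0086). The large subunit genes rpl-23 and rpl-27 had log2 differences of -0.17 (SE 0.06) and -0.16 (SE 0.06). The median was -0.061 in library 24 over 23 and -0.11 in library 26 over 25, and ranged from -0.14 without library 23 to -0.053 without library 25. At 1 day, 7 of the 82 were positive and the median was -0.044.

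These are short transcripts, with a median annotated length of 513.5 bases, and transcript length moved with the arsenite ratio. Over 8465 nuclear protein-coding genes of at least 5 CPM, the median log2 difference went from -0.050 for transcripts up to 500 bases to 0.023 for those over 4000 bases. In library 24 over 23 these medians ran from -0.069 to 0.055. In library 26 over 25 they were -0.031 and -0.0054. Spearman's rho between length and ratio was 0.215 in the first pair and 0.0064 in the second, a description across genes, which are not independent replicates and which share the libraries. For the 1-day difference rho was 0.228, and the medians ran from -0.051 in the shortest class to 0.036 in the longest. The part of transcript length in the ribosomal protein values was not tested.

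**Figure D4:**
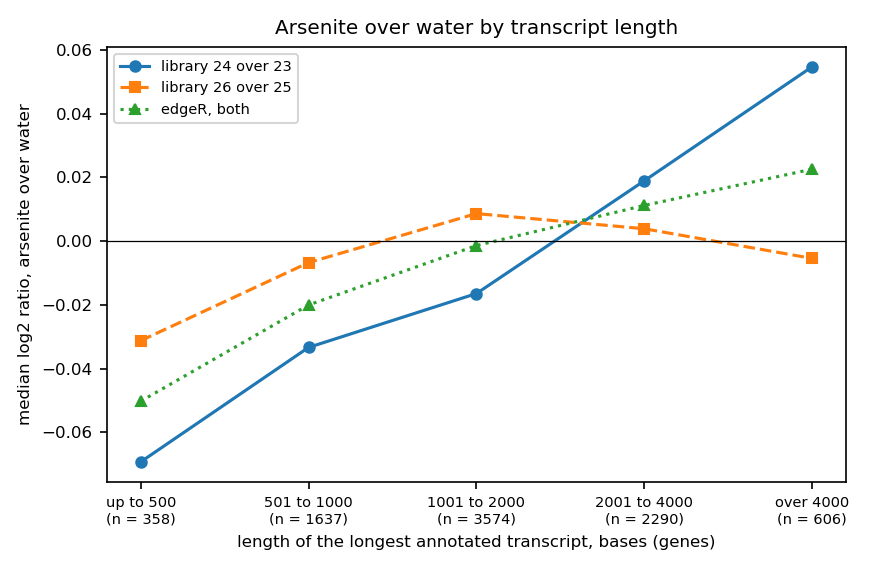
Median log2 ratio of arsenite over water (y axis) in 5 classes of longest annotated transcript (x axis, with the number of genes), for library 24 over 23, library 26 over 25 and the edgeR estimate from both. The line for 24 over 23 climbs from -0.069 to 0.055, and the line for 26 over 25 stays between -0.031 and 0.0086.

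Cuticle collagen genes had a median log2 difference of -0.29. Of 134 tested, of 176 in the table, 12 were positive and none passed. In 30 (22.4%) both arsenite libraries were below both water libraries, against 15.4% of all genes. The collagen col-17 was at 20.5 CPM in library 23, 14.2 in 24, 30.8 in 25 and 19.04 in 26. Its arsenite values were below its water values, but library 25 exceeded library 23 by more than library 23 exceeded library 26, and the log2 difference of -0.63 (SE 0.21) did not pass (edgeR adjusted p = 0.999, and 0.00572 in the neighbour-term fit). The low-count collagen col-49 had 1.75, 0.654, 1.46 and 0.450 CPM and the most negative log2 difference named here, -1.52 (SE 0.32, edgeR adjusted p = 0.279, and 0.0371 in the neighbour-term fit). The same list separated the library pairs: the collagen median of libraries 23 and 24 minus 25 and 26 was -0.40, with 34 of the 134 called lower in that contrast and 10 called higher, against 2.02% and 1.2% of all genes. The collagen median for arsenite was -0.077 without water library 25 and -0.55 without water library 23.

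Other lists of larval and somatic genes also had negative medians. Of 27 larval and moulting genes, 4 were positive, with a median of -0.16 that became 0.031 without library 25. The moulting protease gene nas-36 (1.83, 1.35, 2.53 and 1.31 CPM) was at -0.71 (SE 0.27), and the period-related moulting timer lin-42 (16.46, 14.4, 22.3 and 16.7 CPM) at -0.32 (SE 0.13), or -0.095 without library 25. Body wall muscle genes were positive in 7 of 33, with a median of -0.078, among them the myosin light chain mlc-1 at 93.1, 82.6, 115 and 90.2 CPM (-0.27, SE 0.09, and -0.12 without library 25) and the troponin T gene tnt-2 (-0.17, SE 0.07). Neuronal genes were positive in 12 of 41 (median -0.084, and -0.032 without library 25). The touch neuron tubulin genes mec-7 and mec-12 were lower in both arsenite libraries, at -0.40 (SE 0.13) and -0.30 (SE 0.12). The touch neuron transcription factor gene mec-3 went the other way, at 1.83, 2.62, 1.54 and 2.21 CPM (0.51, SE 0.26). Hypodermis and seam genes were positive in 5 of 13 (median -0.036, and from -0.17 to 0.098 with 1 library left out). Their member of smallest p, let-413, was positive (0.23, SE 0.08). Neuropeptide genes were positive in 43 of 121 (-0.11), pharynx genes in 5 of 16 (-0.13) and intestinal genes in 7 of 25 (-0.067). Without library 25 the medians were 0.027 for pharynx and also for intestine, and without library 24 the intestinal median was 0.0065. No gene of these lists passed. The medians of libraries 23 and 24 minus 25 and 26 were -0.29 for moulting, -0.095 for muscle, -0.13 for neurons and also for neuropeptides, -0.44 for pharynx and -0.091 for intestine. The part of that library split in the arsenite values was not tested.

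**Figure D5:**
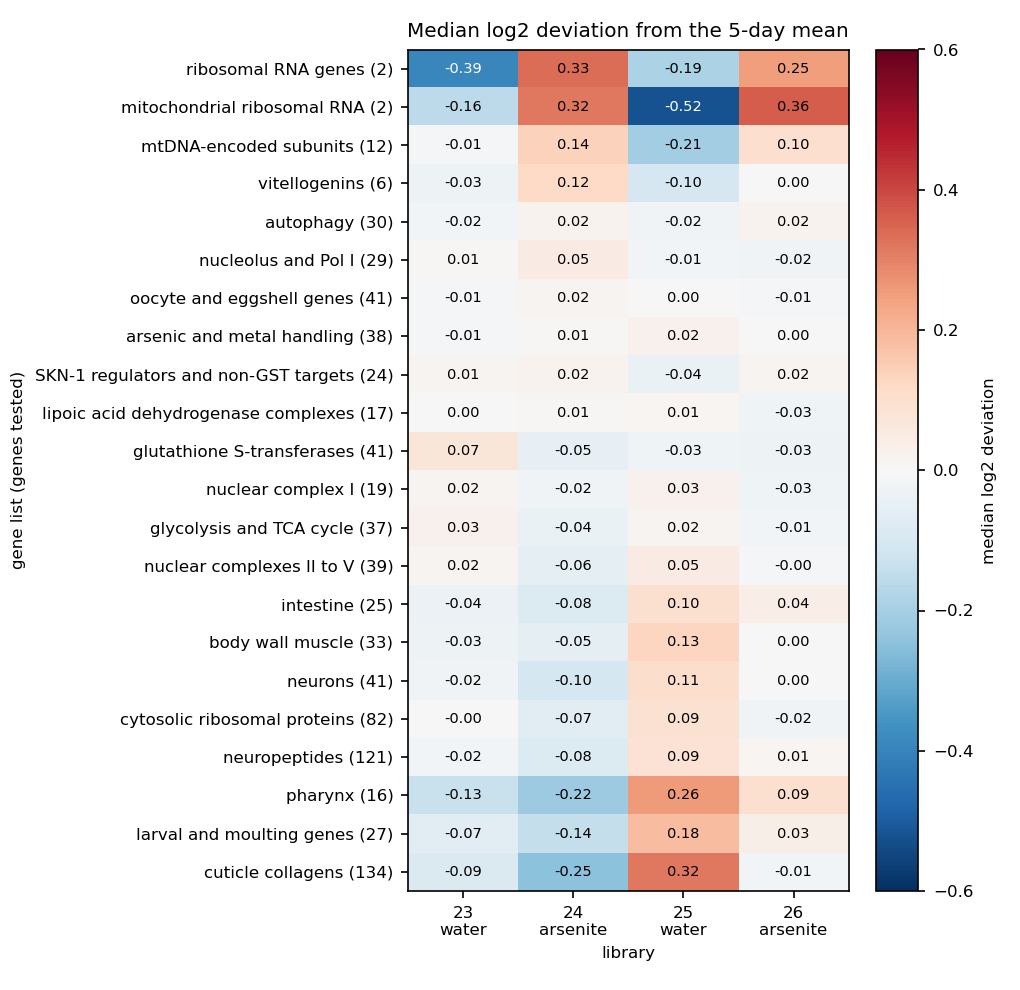
Median log2 deviation of each list's genes from their mean over the 4 libraries (colour and number), with libraries as columns and lists as rows, the number of genes tested in brackets. Ribosomal RNA and mitochondrial RNA are high in both arsenite columns, while the collagen, moulting and pharynx rows are highest in water library 25.

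Genes of the oocyte and embryo had medians near 0, and sperm genes had one that depended on the setting. Oocyte and eggshell genes were positive in 22 of 41 (median log2 difference 0.0039) and zygotic embryonic genes in 14 of 25 (0.011). Sperm genes were positive in 16 of 44 tested, of 73 in the table, with a median of -0.30. That median was -0.36 without library 25, 0 without library 24 and 0.0019 with the 5-day libraries alone, and the median ratio was -0.10 in the first pair and 0.00029 in the second. The summed level of the sperm genes tested was 763, 751, 764 and 781 CPM in libraries 23 to 26, and their log2 differences ran from -3.75 to 3.77. Many members lay near the floor: among all 73, those with 0 counts numbered 25, 27, 29 and 37 in the same libraries. The 6 vitellogenin genes, which encode yolk proteins made in the intestine, had a median of 0.13 with 5 positive. The gene vit-1 was at 484, 552, 482 and 536 CPM, with both arsenite libraries higher (0.17, SE 0.07, unadjusted p = 0.0162). The values for vit-2 (-0.014, SE 0.080) and vit-6 (0.00099, SE 0.082) were near 0.

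Lists of central metabolism and protein turnover had small medians of either sign. Glycolysis and tricarboxylic acid cycle genes were mostly negative, with 8 of 37 positive and a median of -0.047. In 14 of them both arsenite libraries were below both water libraries, against 15.4% of all genes, and in 0 both were above. The aldolase gene aldo-1 was at 38.7, 34.02, 41.5 and 35.7 CPM (-0.20, SE 0.09), and pck-1, which encodes phosphoenolpyruvate carboxykinase, at -0.14 (SE 0.06). Fatty acid synthesis and oxidation genes were positive in 18 of 44 (median -0.029) and proteasome genes in 10 of 33 (-0.027). Autophagy genes went the other way, positive in 21 of 30 with a median of 0.023. The autophagy gene atg-2 was at 101, 116, 105 and 118 CPM, higher in both arsenite libraries (0.18, SE 0.06, unadjusted p = 0.00638), and the autophagy adaptor gene epg-2 at 0.16 (SE 0.06). Of 40 lists with at least 10 genes tested, 31 had a median below 0 and 9 above. Of all lists the TRIM-NHL list, the family of ncl-1, alone held a called gene, which was ncl-1 itself. The lists were chosen with earlier results of these data known. By chromosome, the median log2 difference was lowest on X, at -0.030 over 2096 genes of which 42.2% were positive.

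Whether the arsenite difference itself depended on age was tested as an interaction, the 5-day difference minus the 1-day difference. No gene passed (0 of 14449 by edgeR, DESeq2 and limma voom), with 368 unadjusted edgeR p-values below 0.05 (2.55%), 102 in DESeq2 and 365 in limma voom. The gene ncl-1 had 157.5 and 155.6 CPM in the 1-day water libraries and 165.1 and 152.6 in the 1-day arsenite libraries. These groups overlapped, and all 4 values were above every 5-day value. Its 1-day log2 difference was 0.021 (SE 0.061), and the interaction was 0.42 (SE 0.09, edgeR adjusted p = 0.595). WBGene00014294 had a 1-day difference of -0.089 (SE 0.10) and an interaction of 0.71 (SE 0.15, edgeR adjusted p = 0.595). For the mitochondrial subunits, 1 of 12 was positive at 1 day and the median was -0.11. ND5 had 377.2 and 269.7 CPM in 1-day water libraries 31 and 33, and 291.2 and 281.2 in arsenite libraries 32 and 34. ND4 had 407.5 and 289.1 CPM in those water libraries and 299.6 and 314.7 in those arsenite libraries. In both genes the 1-day groups overlapped, with water library 31 the highest value. The interaction of ND5 was 0.89 (SE 0.27, edgeR adjusted p = 0.9999). In the 1-day water libraries 31 and 33, nuclear ribosomal RNA genes held 3.02% and 2.18% of all counts. In arsenite libraries 32 and 34 they held 3.44% and 3.01%. The ribosomal RNA rrn-3.1 had 31030 and 22210 CPM in those water libraries and 36080 and 30460 in those arsenite libraries, so the groups overlapped. Within each neighbouring pair the arsenite library was the higher, and the 1-day log2 difference of rrn-3.1 was 0.32 (SE 0.19). WBGene00004677 had 177.4 and 156.0 CPM in those water libraries and 213.8 and 207.9 in those arsenite libraries. These groups did not overlap, and the 1-day log2 difference was 0.34 (SE 0.10). Neither 1-day difference passed.

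Because of the genes separating libraries 23 and 24 from 25 and 26, the comparison was repeated in the neighbour-term fit. It called 22 genes (0.152%), 14 higher and 8 lower, including both genes above and 20 more. In that fit the large mitochondrial ribosomal RNA WBGene00014472 had a log2 difference of 0.76 (SE 0.08), with an adjusted p up to 1.00 under other settings. The higher calls also held ND5, rrn-2.1, rrn-3.1, WBGene00004677, set-25, gcn-2, F53H2.3 and tra-1, each described above. The remaining 3 were disl-2, a DIS3-like exonuclease gene (0.31, SE 0.06), dpy-21, which acts in X chromosome dosage compensation (0.27, SE 0.06), and F58D5.5 (0.33, SE 0.07). The gene disl-2 was at 79.9, 104.5, 72.4 and 85.3 CPM, and dpy-21 at 79.9, 104.5, 92.8 and 103.7 CPM in libraries 23 to 26. In both, the arsenite libraries were the higher values in each pair.

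The 8 lower calls of that fit were 4 cuticle collagens (col-17, col-39, col-49 and col-73), the chromosome IV genes ZK180.5 and ZK180.6, the intermediate filament gene ifc-1 and ttr-15. For ifc-1 the values were 13.7, 10.02, 21.3 and 15.2 CPM, so that arsenite library 26 was above water library 23 while each arsenite library was below its neighbour. Its log2 difference in that fit was -0.47 (SE 0.10, edgeR adjusted p = 0.0491, and up to 1.00 under other settings). The collagen col-39 overlaps dph-2 on the opposite strand, which had 3160 counts over the 4 libraries. ZK180.5 was at 32.4, 24.2, 53.8 and 40.6 CPM with the same order of libraries. Of the 8, col-17, col-39, col-73, ZK180.5, ZK180.6 and ifc-1 were also lower in libraries 23 and 24 than in 25 and 26 at an edgeR adjusted p below 0.05.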

How the data were processed

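The authors deposited read counts per gene for 8 libraries made with an mRNA kit from whole worms. Per the submitters' processing notes reads passed through CASAVA (version 1.7), the aligner STAR (2.4.1d) and featureCounts (1.4.6-p4) on genome build WBcel235. The sources used here do not give the annotation release, the strand setting or the treatment of reads with several matches. The deposited table of normalized values was not used.

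From the counts, edgeR 4.0.16 (TMM scaling, filterByExpr with a minimum count of 10 and total of 15, robust quasi-likelihood fit of 4 group means over 8 libraries, 4 residual degrees of freedom) tested 14449 of 46748 identifiers, with Benjamini-Hochberg adjustment over all of them. CPM uses the TMM-scaled library size. Symbols came from a name table (43693 identifiers), and 9 mitochondrial genes were named by overlap with RefSeq genes of WBcel235. Alternatives included DESeq2 1.42.0 and limma 3.58.1.

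Genes named are those called, the 12 of smallest p per direction with at least 5 CPM in a group, those called with the neighbour term, up to 4 of smallest p per list, and a set of stress genes. Members and lists were chosen with earlier results of these data known. Further genes, such as the rest of the mitochondrial genome, are named to complete a list and were chosen after their values were seen. A total of 33 list entries were not matched.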

Additional observations from a re-analysis of the deposited data

How the results depend on the processing

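The number of genes called at 5 days depended on the setting. Against 2 calls, there was 1 with upper quartile scaling and 1 in limma voom, and 14 (6 higher, 8 lower) without the filter on low counts. The 5-day libraries alone gave 0 (383 unadjusted edgeR p-values below 0.05). The term for neighbouring library numbers gave 22, and 124 (53 higher, 71 lower) on the 5-day libraries alone. That last fit left the fewest residual degrees of freedom, so its count does not carry the weight of the main one. Leaving out 1 library gave 0 (without library 24 or 26) to 11 (without library 23). The interaction with age had 1 call without the filter and 0 to 2 when 1 library was left out. It could not be fitted on the 5-day libraries alone. The ribosomal RNA share kept its direction with every library left out and with the other denominator. The cause of these shifts was not tested.

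Medians of lists moved with the library left out: of 40 lists with at least 10 genes tested, 20 had medians of both signs. They ranged from -0.55 to -0.077 for collagens, -0.33 to 0.031 for moulting genes, -0.18 to -0.032 for body wall muscle, -0.21 to -0.021 for neuropeptides, 0.11 to 0.38 for mitochondrial subunits, 0.013 to 0.17 for vitellogenins, -0.33 to 0.027 for pharynx and -0.18 to 0.027 for intestine. They ranged from -0.013 to 0.062 for SKN-1 targets, -0.030 to 0.013 for arsenic and metal handling, -0.12 to -0.0066 for glutathione S-transferases, -0.079 to -0.035 for glycolysis and the tricarboxylic acid cycle, -0.047 to -0.016 for the lipoic acid complexes, -0.057 to -0.038 for nuclear complex I and 0.0057 to 0.028 for autophagy. They ranged from -0.15 to -0.032 for neurons, -0.14 to 0.084 for cytochrome P450s, -0.051 to 0.0068 for UDP-glucuronosyltransferases and -0.36 to 0 for sperm genes. The sperm median was -0.018 without the filter, -0.35 in limma voom and 0.0019 with the 5-day libraries alone, with or without the neighbour term. With RLE scaling, upper quartile scaling, no filter and DESeq2, the complex I median was -0.054, -0.056, -0.059 and -0.054, and the autophagy median 0.017, 0.015, 0.012 and 0.017. With 1 library left out, the lone library of its group is assumed to vary like the other groups. Among the 89 genes followed in this way, 34 kept their sign but moved by over 1.5 times, among them lin-42 (-0.53 to -0.095), cdf-2 (-0.68 to -0.11), gst-4 (0.075 to 0.53), mlc-1 (-0.42 to -0.12), nas-36 (-0.94 to -0.47), col-17 (-0.90 to -0.31) and ZK180.5 (-0.85 to -0.012). Those that took both signs when 1 library was left out were ATP6 (-0.049 to 0.19), COX1 (-0.0051 to 0.18), COX3 (-0.11 to 0.16), CYTB (-0.027 to 0.14), aip-1 (-0.095 to 0.10), gcs-1 (-0.068 to 0.053), mtl-1 (-0.38 to 0.17), mtl-2 (-0.036 to 0.036), hsp-6 (-0.047 to 0.0040), sod-3 (-0.20 to 0.043), vit-2 (-0.13 to 0.095), vit-6 (-0.11 to 0.11) and nhl-1 (-0.24 to 0.037). The value of mtl-2 was -0.0023 without the filter, and that of vit-6 was -0.0046 with RLE scaling and in DESeq2, -0.00774 with upper quartile scaling and -0.010 without the filter.

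The labels carry no replicate numbers and name no pairs, so the term for neighbouring library numbers, which acts as a paired fit, rests on the numbers in the library names alone. It gave the 22 calls above and 0 for the interaction with age. With 2 libraries a group, a difference had to be large against a biological coefficient of variation of 5.88% (7.30% in the 5-day libraries alone, 4.35% with the neighbour term) to pass.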
